A study of Mus musculus with 16 samples.

Results

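The LIM homeobox genes examined here are Lhx1, Lhx2, Lhx3, Lhx4, Lhx5, Lhx6, Lhx8, Lhx9, Isl1 and Isl2, which are 10 of the 21887 protein-coding genes placed on the mouse chromosomes. They were chosen by name. For each, every peak that touched the annotated gene span or the 10 kb either side of it, together called the window, was read from 12 peak lists. The lists come from chromatin immunoprecipitation with sequencing (ChIP-seq) in mouse embryonic stem cells (mESCs) of the C57BL/6 strain. All cells grew in serum medium with LIF, the GSK3 inhibitor CHIR99021 and the MEK inhibitor PD0325901. For each of the marks H3K4me3, H3K27ac and H3K27me3 there were 2 lists from Mettl14 control cells and 2 from Mettl14 knockout cells, which the labels write as CKO. METTL14 works with METTL3 to place N6-methyladenosine on RNA, and the series asked how histone marks differ in cells without it. The labels do not say how the gene was deleted, whether a group is 1 clone, or whether replicates are separate cultures, so their spread may be technical.

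LIM homeodomain proteins are transcription factors with a pair of LIM zinc-binding domains and a homeodomain. The LIM domains bind the bridging protein LDB1, and the homeodomain binds DNA. The genes act in the embryo as selectors of neuronal and organ identity, and most form pairs of close paralogs. In mESCs such lineage genes are usually silent and covered by H3K27me3, the mark of Polycomb repressive complex PRC2. H3K4me3 marks active and poised promoters, and H3K27ac marks active promoters and enhancers.

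Start regions are shown for 4 genes, 3 that a mark covered in at least 2 lists and 1 that no mark touched, since the results below say where peaks lay relative to them. Each is the 250 bases before a start listed by RefSeq for GRCm38.p6, the assembly of mm10, written 5′ to 3′ on the strand of the gene, with each CG dinucleotide in capitals. Isl1 is the gene with H3K4me3 (chr13:116309689-116309938, minus strand). Lhx3 and Lhx4 are genes whose start lay under H3K27me3 in 3 of 4 lists (chr2:26206576-26206825 and chr1:155742028-155742277, both minus strand). Lhx8 is a gene whose start region had no peak on it (chr3:154330561-154330810, minus strand).
Isl1: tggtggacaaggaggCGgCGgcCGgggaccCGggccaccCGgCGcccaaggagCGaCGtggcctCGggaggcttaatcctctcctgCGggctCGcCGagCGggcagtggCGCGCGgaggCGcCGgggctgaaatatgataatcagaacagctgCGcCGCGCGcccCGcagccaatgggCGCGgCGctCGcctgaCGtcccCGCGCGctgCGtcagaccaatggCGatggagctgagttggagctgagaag
Lhx3: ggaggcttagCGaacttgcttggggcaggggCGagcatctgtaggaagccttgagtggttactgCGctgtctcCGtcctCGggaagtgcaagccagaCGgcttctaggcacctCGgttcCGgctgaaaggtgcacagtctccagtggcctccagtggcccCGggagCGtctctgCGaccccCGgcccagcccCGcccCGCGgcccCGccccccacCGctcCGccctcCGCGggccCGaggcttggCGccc
Lhx4: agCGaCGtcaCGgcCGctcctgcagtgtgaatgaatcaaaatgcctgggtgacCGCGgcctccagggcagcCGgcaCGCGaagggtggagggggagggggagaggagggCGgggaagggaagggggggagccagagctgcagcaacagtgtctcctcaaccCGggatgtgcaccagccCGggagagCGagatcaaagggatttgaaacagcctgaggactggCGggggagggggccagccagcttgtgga
Lhx8: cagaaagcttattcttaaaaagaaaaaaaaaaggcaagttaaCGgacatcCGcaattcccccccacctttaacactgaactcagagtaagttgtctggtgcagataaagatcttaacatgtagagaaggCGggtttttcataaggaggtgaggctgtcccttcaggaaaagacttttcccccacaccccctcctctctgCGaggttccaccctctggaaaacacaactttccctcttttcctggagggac

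The Isl1 region holds 33 CG, more than 96.0% of the 32851 start regions in the RefSeq table, and all 250 of its bases lay under the H3K4me3 peaks of both knockout lists. The Lhx3 region holds 22 CG and the Lhx4 region 14 CG. The Lhx8 region holds 4 CG, and the Lhx9 region also holds 4, fewer than any of the other members' regions. Over the 13 regions listed for 9 of the genes the median was 16 CG, against 6 over the whole table. The GC box GGGCGG, searched on both strands, was in 7 of the 13 and in 32.7% of all regions. CCAAT, also on both strands, was in 6 of the 13 and in 33.8% of all regions. TAATTA, a core that homeodomains bind and the same on both strands, was in 0 of the 13 and in 4.84% of all regions. The GC box contains a CG, and the other motifs can share a base. Lhx5 has no entry in that table, so its peaks are placed relative to the ends of its span.

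The 3 marks were called very unevenly at these genes. H3K27me3 was called in the windows of all 10 genes, in at least 1 list each, and in all 4 lists at 8 of them. Over all 21887 protein-coding genes, 8216 had H3K27me3 in at least 1 list, and the share called in all 4 lists was 10.2%. H3K4me3 was called at Isl1 alone, in both knockout lists, and H3K27ac was called at 4 genes with no gene called in both lists of a condition. Of the 21887 genes, 11544 had H3K4me3 and 12201 had H3K27ac in at least 1 list. The windows were 27.6 kb to 73.7 kb long, with a median of 37.5 kb against 37.2 kb over all genes.

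**Figure D1:**
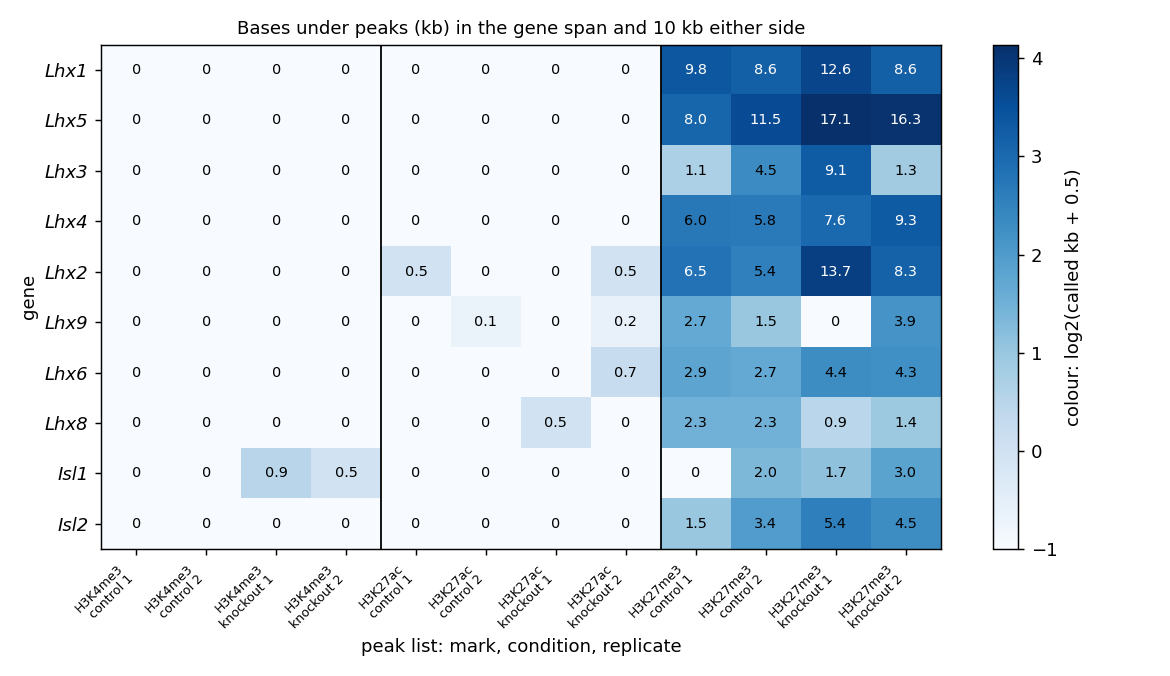
Bases under peaks, in kb, in the window of each gene (rows) in each of the 12 lists (columns, by mark, condition and replicate); the number in a tile is the value and the colour its log2 after adding 0.5 kb. The 4 H3K27me3 columns are filled at nearly every gene, with a 0 at Isl1 in control replicate 1 and at Lhx9 in knockout replicate 1, while H3K4me3 is filled at Isl1 alone.

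The lists themselves differ in length, which bears on every comparison below. The H3K27me3 lists covered 4.80 Mb on average in control and 10.3 Mb in knockout cells, a 2.15-fold difference (log2 1.10). For H3K4me3 the difference was 4.79-fold and for H3K27ac 1.12-fold. The lists hold positions and no read numbers, so the depth behind them is unknown, and whether more cells carried a mark or each cell carried more of it cannot be told apart. As a check of the cell label, H3K27ac lay at the ends of 5 of 8 mESC marker genes in both control lists and of 6 in both knockout lists. It lay at 0 of 8 fibroblast, 0 of 6 primitive endoderm and 0 of 7 neural markers in both lists of either condition. H3K4me3 lay at 3 of the 8 mESC markers in both control lists, at 7 in both knockout lists, and at 0 of the other markers. H3K27me3 lay at 0 of the 8 mESC markers in both control lists and at 1, Esrrb, in both knockout lists. The share over all genes was not taken for gene ends. The targeted gene Mettl14 had H3K4me3 and H3K27ac at its ends in both knockout lists and not in both control lists, which does not check its deletion.

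H3K27me3 covered more bases of these windows in the knockout lists. The 10 windows together held 40.9 kb and 47.7 kb of called bases in the control lists and 72.4 kb and 60.8 kb in the knockout lists, with means of 44.3 ± 4.81 kb and 66.6 ± 8.18 kb (SD, n = 2 each). That is a 1.503-fold difference, against 2.17-fold for the same sum over all protein-coding genes. Called length was longer in both knockout lists than in both control lists at 5 genes, Lhx2, Lhx4, Lhx5, Lhx6 and Isl2, and shorter in both at 1, Lhx8. Over all protein-coding genes 12.3% were longer and 0.786% shorter by this rule. Only the 8216 genes with H3K27me3 in any list can be either, and all 10 genes here are among them. Of those 8216 genes, 2691 were longer and 172 shorter, so the shares among marked genes are higher than these backgrounds. None of the 10 genes was called in both knockout lists and neither control list (background 3.55%), and none in both control lists and neither knockout list (background 0.388%). The median difference over the 10 genes was 1948.5 bp, and over the 8216 genes with H3K27me3 in any list it was 380 bp. Each p below is from a two-sided exact permutation test over the 4 lists of a mark. Its smallest possible value is 0.33, which every gene with separate groups has, so no single gene can reach significance.

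The direction depends on whether lengths are taken as called or relative to the list. The 10 windows held 0.916% and 0.930% of all called H3K27me3 bases in the control lists, and 0.716% and 0.579% in the knockout lists, so their share of the list was lower in both knockout lists. In a comparison chosen after seeing the data, each list was scaled to the same covered length, and then 0 of the 10 genes were longer in the knockout and 5 were shorter, Lhx1, Lhx4, Lhx5, Lhx6 and Lhx8. The background was then 6.1% longer and 3.66% shorter. Each background in this paragraph is over all protein-coding genes, with or without H3K27me3, so it is lower than the share among marked genes. With each list cut to its widest peaks, in the number of peaks of the shortest list, the same 5 genes as in the uncut lists were longer (background 8.18%) and Lhx8 was shorter (background 1.42%). With peaks of the minimum width of 501 bp left out of every list, the same 5 were longer (background 8.69%) and 0 shorter (background 0.343%). All directions given below per gene are for lengths as called.

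**Figure D2:**
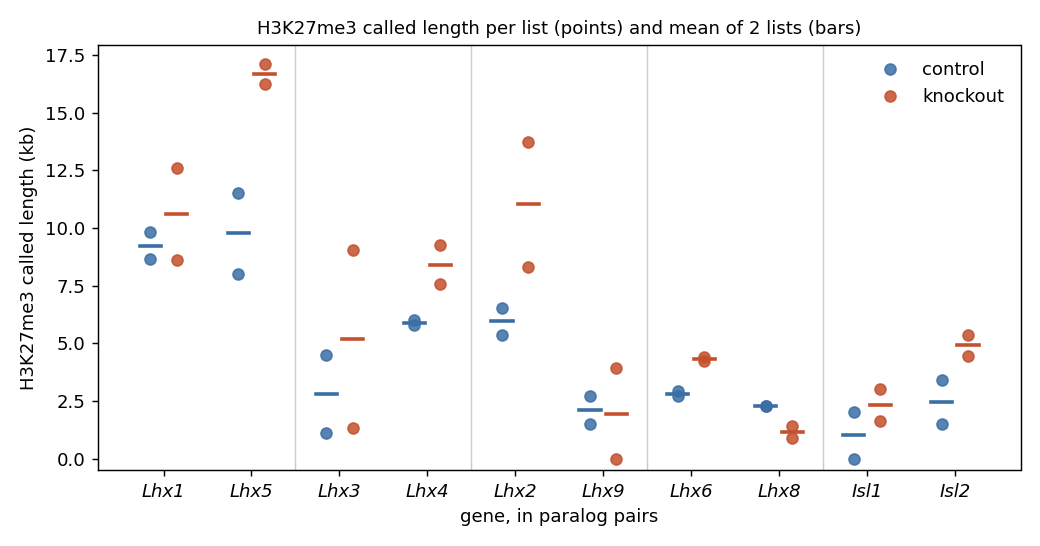
H3K27me3 called length in kb (vertical axis) per gene in paralog pairs (horizontal axis); each point is 1 list, blue for control and red for knockout, and each bar is the mean of 2 lists. The control and knockout points lie apart at Lhx5, Lhx4, Lhx2, Lhx6, Lhx8 and Isl2, with Lhx8 the only one of these lower in the knockout.

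Lhx1 and Lhx5 carried the longest H3K27me3 in the control cells. Lhx5, which acts in forebrain and hippocampus development (mm10 chromosome 5, 120431886 to 120441457), had 8.02 kb and 11.5 kb in the control lists and 17.1 kb and 16.3 kb in the knockout lists, a 1.71-fold difference in means (exact permutation p = 0.33). The groups did not overlap. The control calls were 4 and 3 separate peaks. Knockout replicate 1 held 1 peak of 501 bp and 1 of 16594 bp from 120424225 to 120440818, which ran from below the span across most of the gene. Knockout replicate 2 held a peak of 11362 bp over the same gene end and peaks of 4139 bp and 1797 bp below it. The peaks outside the lower end also lie on the noncoding genes Gm27199 and Gm31976, so they cannot be assigned to Lhx5 alone. With the gene span alone, the knockout mean exceeded the control mean by 2.98 kb, against 6.91 kb in the whole window. Between 120432330 and 120438206, inside the gene, 3 stretches of 1968 bp, 513 bp and 1834 bp were called in all 4 lists.

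Lhx1, needed for head and kidney formation (chromosome 11, 84517975 to 84525534), had 9.83 kb and 8.64 kb in control and 12.6 kb and 8.61 kb in knockout lists. Knockout replicate 2 lay just below both control lists and knockout replicate 1 above them, so the groups overlapped (exact permutation p = 1.0). The calls broke into 5 and 6 peaks in control and 9 and 6 in knockout lists. In every list the peaks above the upper end of the span also lie on Lhx1os. Those include peaks of 4299 bp in control replicate 1 and 3653 bp in knockout replicate 2, and they cannot be assigned to Lhx1 alone. A peak edge came within 16 bp to 449 bp of the listed start in every list, and no list had the start itself under a peak. A stretch of 1693 bp beginning 608 bp inside the gene was called in all 4 lists. Ranked by mean H3K27me3 length among 21887 protein-coding genes, Lhx5 stood at 15 in control and 16 in knockout cells, and Lhx1 at 16 and 88. Longer windows can hold more called bases, and neighbouring genes share peaks in this ranking.

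Lhx3 and Lhx4, which act together in the pituitary and in motor neurons, differed in how steady their calls were. Lhx4 (chromosome 1, 155698031 to 155751726) had 5.99 kb and 5.81 kb in control and 7.58 kb and 9.25 kb in knockout lists, 1.43-fold longer (exact permutation p = 0.33), with no overlap of the groups. The control calls were 5 and 7 peaks of at most 2049 bp. Each knockout list instead held 1 wide peak, of 6495 bp and 8750 bp, plus 1 further peak. The wide peak of knockout replicate 2 ran over the listed start, and that of knockout replicate 1 ended 941 bp inside the gene from it. The single listed start, at 155742027, lies inside the span. Lhx4 is on the minus strand, so the 5′ end of its span is at 155751726. All of the 250 bases shown above for Lhx4 lay under H3K27me3 in control replicate 1 and knockout replicate 2, 198 of them in control replicate 2 and 0 in knockout replicate 1.

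Lhx3 (chromosome 2, 26200212 to 26208249) had 1.13 kb and 4.49 kb in control and 9.06 kb and 1.32 kb in knockout lists. Knockout replicate 1 was the highest of the 4 and knockout replicate 2 the second lowest, so the groups overlapped (exact permutation p = 0.667). The high value was 1 peak of 9060 bp that covered nearly the whole gene. Without knockout replicate 1, the knockout value is the 1.32 kb of the other list, below the control mean of 2.81 kb. The inner of its 2 listed starts, whose upstream bases are shown above, lay under a peak in 3 of 4 lists. In the fourth, control replicate 1, the nearest peak was 284 bp away. The outer start was under no peak in any list.

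Lhx2, which acts in eye, cortex and hair follicle development (chromosome 2, 38339271 to 38369737), had the largest knockout length after Lhx5. Its lists held 6.54 kb and 5.36 kb in control and 13.7 kb and 8.32 kb in knockout cells, 1.86-fold longer (exact permutation p = 0.33). The groups did not overlap, and the knockout lists lay further apart than the control lists. The control lists shared 501 bp and the knockout lists 4404 bp, of which 3306 bp were in neither control list, and 0 bp were called in all 4. The control pair shared 4.40% of the bases called in either, less than 3 of the 4 pairs of a control and a knockout list. Some of the peaks also lie on the neighbours Gm46736, Gm27197 or Gm13584. In both knockout lists the widest peak lay inside the gene and was 6488 bp and 3302 bp wide. That of knockout replicate 1 covered the second listed start, while in knockout replicate 2 the peak nearest to that start was another, 126 bp away and 900 bp wide. The first start was under H3K27me3 in replicate 1 of both conditions and not in replicate 2, where the nearest peak was 1844 bp away in control and 3547 bp away in knockout cells.

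Its paralog Lhx9, needed for gonad formation (chromosome 1, 138825186 to 138848839), had less H3K27me3 than Lhx2 in all 4 lists. It had 2.71 kb and 1.49 kb in control lists, 0 in knockout replicate 1 and 3.92 kb in knockout replicate 2, so the knockout lists lay on both sides of the control lists (exact permutation p = 1.0). The control lists shared 1410 bp at and just above the upper end of the gene. Knockout replicate 2 held a peak of 2914 bp at that end, inside the gene. In none of the lists did a peak come within 1 kb of the single listed start, which lies inside the span. Lhx9 lies on the minus strand, so the upper end of the span, at 138848839, is its 5′ end. Peaks inside the gene ended near it, at 138848416 and 138848412 in the control lists and 138848665 in knockout replicate 2.

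Lhx6 directs interneurons of the ventral forebrain, and Lhx8 acts in cholinergic neurons and oocytes. Lhx6 (chromosome 2, 36081950 to 36105992) had 2.92 kb and 2.70 kb in control and 4.40 kb and 4.25 kb in knockout lists, 1.54-fold longer (exact permutation p = 0.33), with close replicates and no overlap. Those totals came from different places, since the control lists shared 51 bp and the knockout lists 1666 bp. Control replicate 1 held its widest peak, 1922 bp, over the listed starts. The widest peak of control replicate 2, 1198 bp, lay further inside the gene, 9735 bp from the nearest listed start. Those of the knockout lists, 1803 bp and 1674 bp, also lay further inside, 8146 bp and 6327 bp from it. Knockout replicate 2 had a further peak, 752 bp wide, 45 bp from a listed start.

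Lhx8 (chromosome 3, 154306288 to 154330560) was the single gene with a shorter call in the knockout. It had 2.28 kb and 2.27 kb in control and 0.886 kb and 1.42 kb in knockout lists, 0.507 of the control mean (exact permutation p = 0.33). No base was shared by the control lists or by the knockout lists, and no peak was wider than 1266 bp. Some peaks outside the span also lie on the neighbour AI606473, among them the only peak of knockout replicate 1. With peaks of the minimum width of 501 bp left out, the difference turned to 0.132 kb in favour of the knockout.

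Isl1 marks cardiac progenitors and motor neurons, and Isl2 acts in motor neurons and retinal ganglion cells. Isl2 (chromosome 9, 55538677 to 55547667) had 1.503 kb and 3.41 kb in control and 5.38 kb and 4.45 kb in knockout lists, 2.0-fold longer (exact permutation p = 0.33). The groups did not overlap, and the control lists lay further apart than the knockout lists. Isl1 (chromosome 13, 116298270 to 116309688) had 0 and 2.04 kb in control and 1.66 kb and 3.02 kb in knockout lists, and the groups overlapped (exact permutation p = 0.667). No base at Isl1 was shared by any pair of H3K27me3 lists. Isl2 had more H3K27me3 than Isl1 in all 4 lists.

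**Figure D3:**
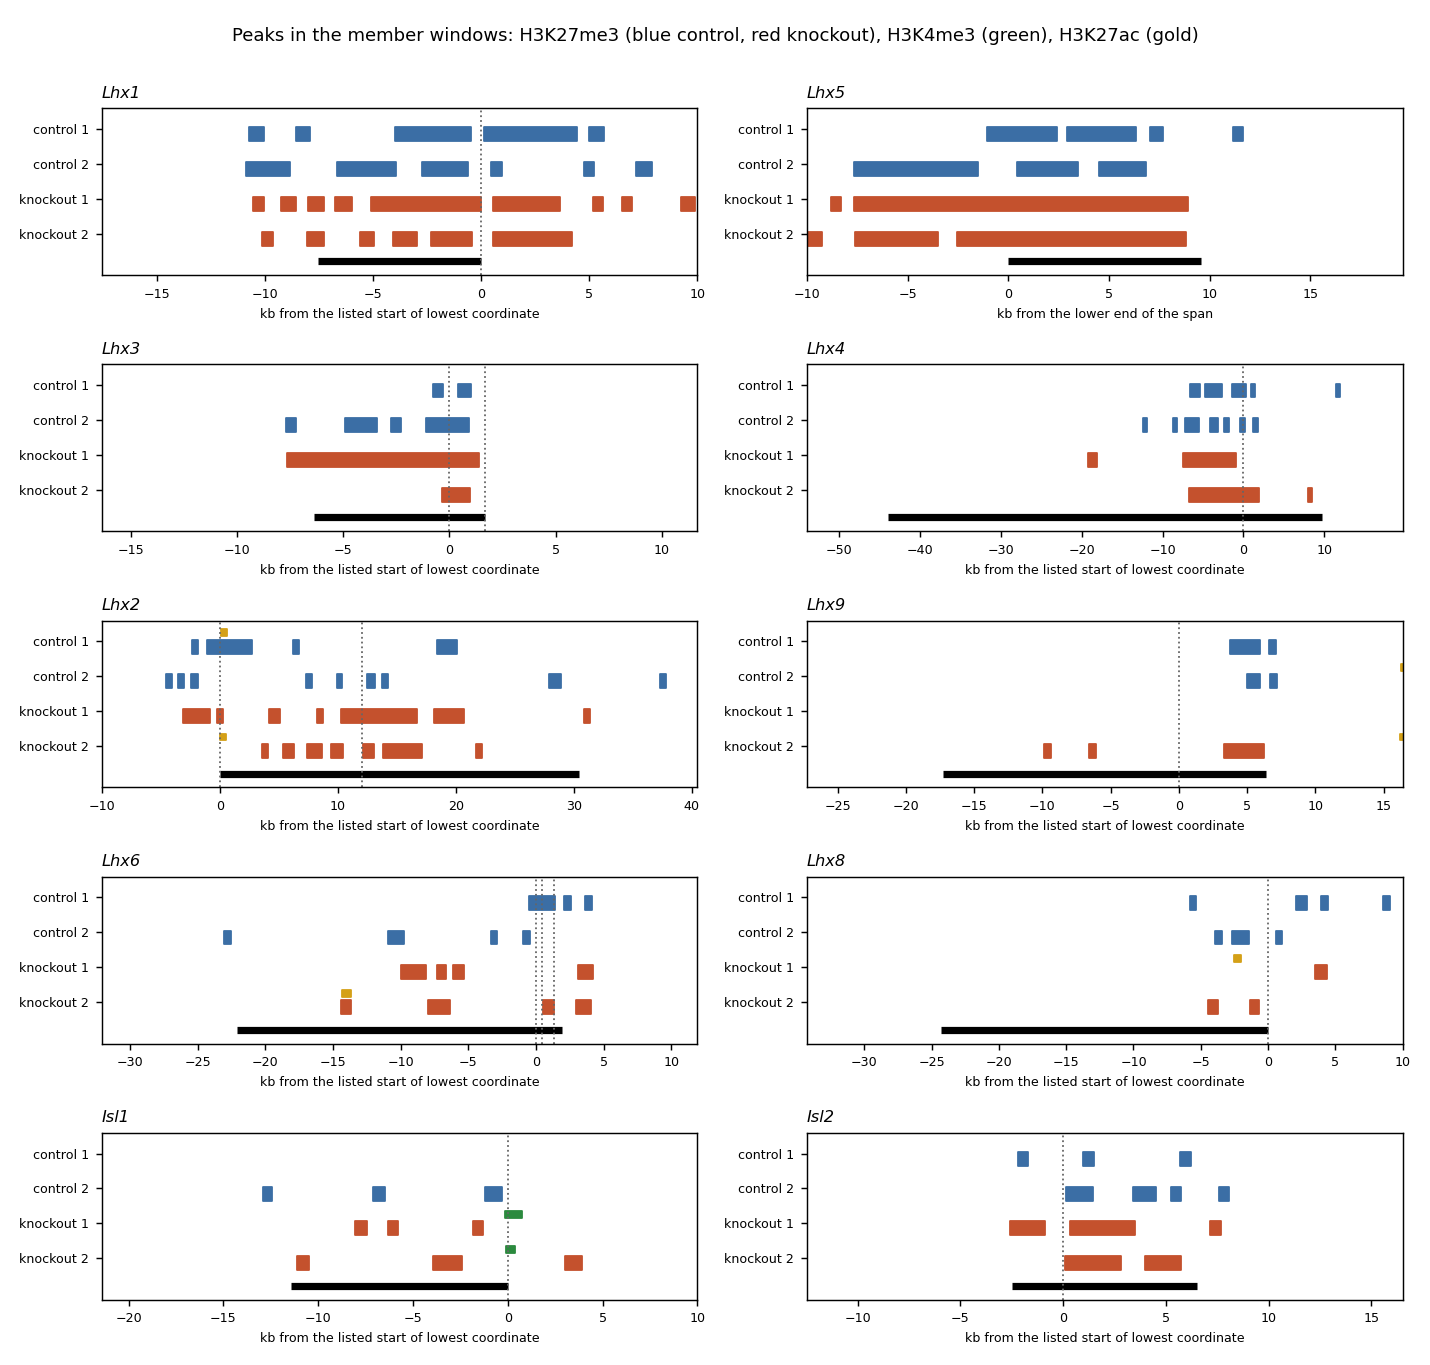
Peak positions in the window of each gene, in kb from the listed start of lowest coordinate (dotted lines mark the listed starts) or, for Lhx5, from the lower end of the span; the black bar is the gene span and coordinates rise to the right. Rows are lists, with H3K27me3 in blue (control) and red (knockout), H3K4me3 in green and H3K27ac in gold drawn just above their list; the 16594 bp and 11362 bp peaks at Lhx5 and the green peaks at the Isl1 start stand out.

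The order of the genes by H3K27me3 length was only partly resolved by 2 lists. In control cells Lhx5 and Lhx1 overlapped each other and lay above Lhx2 and Lhx4, which overlapped each other and lay above the rest. From Lhx6 down through Lhx3, Isl2, Lhx8, Lhx9 and Isl1 each gene overlapped the next. In knockout cells Lhx5 lay apart at the top and Lhx2, Lhx1, Lhx4, Lhx3 and Isl2 each overlapped the next. Isl2 and Lhx6 did not overlap, nor did Lhx6 and Isl1, while Isl1, Lhx9 and Lhx8 each overlapped the next.

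Peaks at these genes were wider in the knockout lists, and their number overlapped between the conditions. The windows held 32 and 45 H3K27me3 peaks in control and 32 and 33 in knockout lists. Their median width was 630.5 bp in control replicate 1 and 631 bp in control replicate 2. In the knockout it was 790.5 bp and 949 bp. Peaks of the minimum width made up 46.9% and 46.7% in control and 31.2% and 18.2% in knockout lists. In the whole lists these shares were 62.0% and 63.2% in control and 56.2% and 55.0% in knockout. Peaks over 4 kb in the windows numbered 1 and 1 in control and 5 and 3 in knockout lists. Such peaks were not counted in the whole lists, so these numbers cannot be called particular to these genes. The widest peak of the whole list was 8596 bp and 10396 bp in control. In the knockout lists it was 16594 bp, the peak at Lhx5, and 18662 bp. Of the 9 genes with a listed start, 2 or 3 had a start under an H3K27me3 peak in each list, and 5 to 8 had a peak within 1 kb of one. The 3 genes with more than 1 listed start had more chances to count. The same share over all genes was not taken, so these counts cannot be called particular to these genes.

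The bases called varied between replicates as well as between conditions. Within the 10 windows the control lists shared 19.7% of the bases called in either, and the knockout lists shared 40.3%. A control and a knockout list shared 28.3% to 31.6%, so each control list shared more with either knockout list than with its own replicate. The whole lists showed the same order at lower values, 9.05% for the control pair, 18.2% for the knockout pair and 11.03% to 11.8% across. Bases called in all 4 lists came to 9.85 kb and lay at 5 genes, Lhx1, Lhx5, Lhx3, Lhx4 and Isl2. Bases in both knockout lists and neither control list came to 9542 bp, and bases in both control lists and neither knockout list to 898 bp. The same bases were not counted over the whole lists, where the knockout lists cover 2.15-fold more. These 2 values therefore cannot be called particular to these genes.

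**Figure D4:**
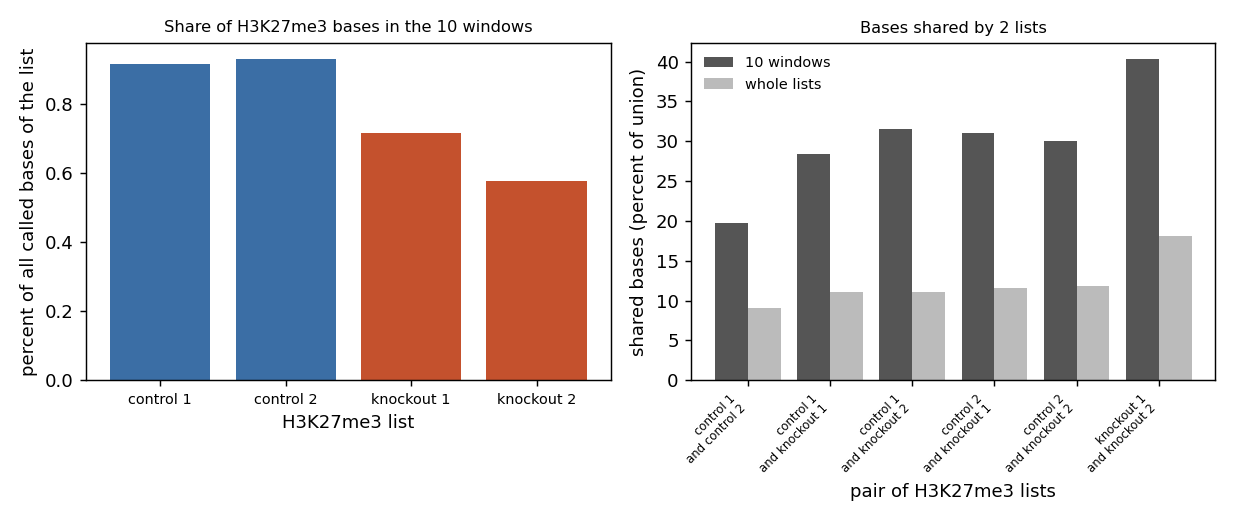
Left, the percent of all called H3K27me3 bases of each list that lie in the 10 windows, 0.916 and 0.930 in control against 0.716 and 0.579 in knockout lists. Right, bases shared by 2 H3K27me3 lists as a percent of bases called in either, in the 10 windows (dark) and in whole lists (light), for each of the 6 pairs; the control pair is the lowest and the knockout pair the highest.

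H3K4me3 was called at Isl1 and at 0 of the other genes. The peaks were 903 bp (chr13:116309554-116310456) in knockout replicate 1 and 501 bp (chr13:116309596-116310096) in knockout replicate 2, and neither control list had one. Both crossed the upper end of the gene and covered the listed start and the upstream bases shown above. That makes 1 of 10 genes called in both knockout lists and neither control list, against 16.6% of all protein-coding genes, and 1 of 10 longer in both knockout lists, against 31.7%. None was shorter (background 0.114%), called in the control lists alone (background 0.11%) or called in all 4 lists (background 5.48%). With lists of equal number of peaks or with peaks of the minimum width left out, the count was 0. The Isl1 H3K4me3 peaks overlapped no H3K27me3 peak, and the smallest distance to one in the knockout lists was 1197 bp. No other gene had both marks in a condition.

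H3K27ac calls were few and narrow. The 6 peaks in these windows lay at Lhx2, Lhx9, Lhx6 and Lhx8, and 5 of them had the minimum width of 501 bp. At Lhx2 control replicate 1 and knockout replicate 2 each had a peak beginning 67 bp and 38 bp into the gene from its first listed start. At Lhx9 control replicate 2 and knockout replicate 2 had a peak at the outer edge of the window, 16265 bp and 16241 bp from the listed start. Lhx6 had 658 bp in knockout replicate 2 and Lhx8 501 bp in knockout replicate 1, both inside the gene. No gene was called in both lists of a condition, so 0 of 10 were called in all 4 lists (background 20.4%). Likewise 0 of 10 were longer (background 11.2%) and 0 shorter (background 3.81%), 0 were called in the knockout lists alone (background 2.98%) and 0 in the control lists alone (background 1.11%). The H3K27ac peak overlapped an H3K27me3 peak in 1 of 4 pairs of lists at Lhx2 in each condition and at Lhx6 in knockout cells.

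The partners of the LIM homeodomain proteins showed another mix of marks. This list held 12 genes: the related factors Lmx1a and Lmx1b, the bridging factors Ldb1 and Ldb2, the LIM-only genes Lmo1 to Lmo4, the LDB-binding genes Ssbp2 to Ssbp4, and Rlim, a ubiquitin ligase that acts on LDB proteins. H3K4me3 was longer in both knockout lists at 5 of 12, Ldb1, Ssbp3, Ssbp4, Rlim and Lmo4, and shorter at 0 (background 31.7% and 0.114%). Ldb1 had 0 and 501 bp in control cells, and its knockout lists held 2765 bp and 2661 bp. Rlim had 501 bp and 697 bp in control cells, and its knockout lists held 1511 bp and 1514 bp. H3K27ac was longer at 2 of 12, Ldb1 and Rlim (background 11.2%), and shorter at 1, Ssbp3 (background 3.81%). At Ssbp3 its control values were 2643 bp and 501 bp, against 0 in both knockout lists, while H3K4me3 there went from 501 bp and 640 bp to 1975 bp and 1986 bp.

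H3K27me3 was longer in both knockout lists at 3 of these 12, Lmx1b, Lmo1 and Lmo2 (background 12.3%), and shorter at 1, Lmo4 (background 0.786%). Lmx1b, a gene of limb and midbrain patterning, had 10774 bp and 18631 bp in control cells. Its knockout lists held 29608 bp and 33958 bp, and it exceeded every Lhx and Isl gene in each list. Lmo4 had control values of 669 bp and 2080 bp, against 0 and 501 bp in the knockout. Its H3K4me3 was 0 in both control lists, against 1051 bp and 501 bp in the knockout. Ldb1, Ldb2, Ssbp2, Ssbp3 and Rlim had no H3K27me3 in any list.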

How the data were processed

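Peak lists of H3K4me3, H3K27ac and H3K27me3 were used, 2 Mettl14 control and 2 knockout libraries per mark, grouped by the sample titles. The 4 inputs were not analysed here. Per the submitters' processing notes the authors used CASAVA, Trimmomatic 0.38, Bowtie2 2.4.1, SAMtools and HOMER with build mm10. How peaks were called, including any use of the spike-in chromatin named in the labels' protocols, is not stated in those notes or labels. The deposited BED lists hold the start and end of each peak in bp, 1 list per library, with a constant score of 1 that was not used and no signal. The narrowest peak is 501 bp. The antibody field of the H3K27ac samples names the H3K4me3 antibody, and the mark in their titles was followed.

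Gene spans came from a RefSeq table of GRCm38.p6 and starts from its promoter table, which lists 9 of the 10 genes. Called length is the bases under peaks in a gene's window, and a touch needs 1 bp. The members, lists and rules were chosen with earlier results of these data known. Named were all 10 members, partner genes longer or shorter in both knockout lists, and the 5 genes most like the longest member over 12 lists. Groups were compared by the exact permutation test over 6 assignments. Alternatives were the window (0, 5 and 20 kb), list length, peak width, midpoints, omitted lists, a replicate block and scaling to list length. The counting code was tested on simulated data. Python 3.11.15, pandas 2.3.3 and NumPy 2.4.6 were used.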

Additional observations from a re-analysis of the deposited data

How the results depend on the processing

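Of the values recomputed for the comparisons, 173 were classed as unchanged, 22 as moved and 1 as turned. The first class is loose, and it includes counts of 0 that stayed 0. It also includes an H3K27ac difference of 0.185 kb or 0.998 kb against 0.592 kb, and 7 genes with longer H3K27me3 against 5. With lists scaled to covered length, H3K27me3 length over the 10 windows turned from a knockout excess of 22.3 kb to -20.8 kb, with 0 genes longer and 5 shorter, and the difference changed sign at 7 genes, Lhx1 (-6.87 kb), Lhx5 (-3.03 kb), Lhx3 (-0.40 kb), Lhx4 (-3.19 kb), Lhx2 (-1.34 kb), Lhx6 (-1.29 kb) and Isl2 (-0.17 kb). The cause was not tested. Scaling moved the H3K4me3 difference from 0.702 kb to 0.422 kb. With the gene span alone it was 0.114 kb, with lists of equal number of peaks 0.0 kb and without peaks of minimum width 0.452 kb. In the last 2 settings the H3K4me3 counts longer and knockout-only were 0 in place of 1. The 1 gene with shorter H3K27me3, Lhx8, gave 0 with the span alone and 0 without peaks of minimum width, where its difference was 0.132 kb. The H3K27ac difference of 0.592 kb was 0.0785 kb with windows of 20 kb.

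With 1 list omitted in turn there were 5 to 7 genes with longer and 1 to 2 with shorter H3K27me3, 0 to 1 knockout-only and 0 to 1 control-only. The count of 2 came without either knockout replicate. The knockout-only gene appeared without control replicate 2 (Isl1) and the control-only gene without knockout replicate 2 (Lhx9). For H3K27ac it gave 0 to 2 genes longer and 0 to 1 knockout-only (2 and 1 without knockout replicate 1, 1 and 1 without knockout replicate 2), and an H3K27ac difference of 0.185 kb (without knockout replicate 2) to 0.998 kb (without knockout replicate 1). The H3K4me3 difference was 0.501 kb to 0.903 kb. Without knockout replicate 1 the H3K27me3 difference changed sign at Lhx1 (1.37 kb to -0.62 kb), Lhx3 (2.38 kb to -1.49 kb) and Lhx9 (-0.141 kb to 1.82 kb). Without control replicate 1 it was 0.467 kb at Lhx9. These values per gene were still classed as unchanged. With a list omitted the rule needs fewer lists to differ. With a replicate block, comparing lists of the same number, 6 genes had longer H3K27me3 and 1 shorter, and the block changed no other call. Same-numbered lists did not deviate together over genes (correlations of 0.0019 for H3K4me3, -0.0048 for H3K27ac and -0.014 for H3K27me3), so the numbers were not taken to pair the lists. Depth and peak heights were not available to weigh any call.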

Other observations

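Lhx5 was the member with the largest mean called length over the 12 lists. The genes most like it over all marks were sought by the smallest Euclidean distance in log2(called bp + 500) over those lists. They were Skor1, Neurod2, Hoxa10, Gprin1 and Gm33099. Skor1 had 5.61 kb and 11.02 kb in control and 15.4 kb and 14.6 kb in knockout lists (distance 0.53), near the values of Lhx5. Neurod2, a neuronal transcription factor, had 5.25 kb and 12.8 kb against 19.9 kb and 18.9 kb (distance 0.66). The 5 genes, like Lhx5, had no H3K4me3 or H3K27ac peak in their windows in any list. Those lists were part of the measure that chose the genes. Their likeness to Lhx5 in any mark is therefore no separate result.

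Other homeobox families gave values of the same kind. Of 9 Pax genes, 7 had longer H3K27me3 in both knockout lists and 0 shorter, and of 14 Nkx genes 6 and 0, against 5 and 1 of the 10 LIM homeobox genes. Over all protein-coding genes 12.3% were longer and 0.786% shorter. That background includes genes without H3K27me3, since 8216 of the 21887 had it in any list. Their summed H3K27me3 lengths were 2.06-fold (Pax) and 1.56-fold (Nkx) higher in the knockout, against 1.503-fold for the LIM homeobox genes and 2.17-fold for the same sum over all protein-coding genes. Differences between the families were not tested. H3K4me3 was called in both knockout lists at 0 Pax and 0 Nkx genes, and at Isl1 alone of the LIM homeobox genes. Of all protein-coding genes, 41.9% had H3K4me3 in knockout replicate 1 and 42.4% in knockout replicate 2. The share called in both was not taken.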
